A study of Mus musculus with 62 samples.

Results

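Soleus muscle of mice carrying cachectic melanoma cells was compared between 6 and 4 weeks after the injection of the cells. The cachectic group at 6 weeks (CAC 6 weeks, 5 libraries) and at 4 weeks (CAC 4 weeks, 5 libraries) were chosen by their labels, and together they made up 10 of the 62 libraries of the series. The soleus is a postural hindlimb muscle built mainly of slow, oxidative fibres, and its RNA was sequenced after a stranded library preparation. All animals were female and 2 months old per the labels, and each library came from a soleus labelled as a biological replicate of its group. The mock-injected groups at 6 weeks (Con 6 weeks, 5 libraries) and 4 weeks (Con 4 weeks, 5 libraries) gave the same interval in mice without a tumour. The strain is given as C57BL6/J with each sample but as NCI Ath/nude, an immunodeficient line, in the description of the design, and LLC cells are mentioned in a protocol, so neither the strain nor the name of the melanoma cells is settled here. A mock injection controls for the procedure and for time, not for a tumour that causes no wasting.

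Cachexia is the loss of muscle and fat that accompanies some tumours and that feeding alone does not reverse. Circulating cytokines such as those of the IL-6 family, together with glucocorticoids, switch on acute phase genes, metallothioneins and protein breakdown in muscle, while oxidation of fatty acids and upkeep of the extracellular matrix can fall. Slow fibres draw most of their energy from mitochondrial oxidation of fatty acids, so the enzymes of that pathway are abundant in the soleus. The comparison asks how the muscle of the same tumour group differed between an earlier and a later stage.

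The deposited values were TPM, a level per transcript length that is scaled to the same total in each library, and the sequencing depth is therefore unknown. At least 1 TPM was reached by 11873 to 12237 genes in CAC 6 weeks and 11827 to 12225 genes in CAC 4 weeks. Pairwise correlations across genes within a group were 0.980 to 0.988 in CAC 6 weeks and 0.965 to 0.989 in CAC 4 weeks. The first principal component, the axis along which the 10 libraries differed most, held 43.8% of their variance. On it replicates 2 and 4 of CAC 4 weeks (-19.8 and -7.46) lay within the CAC 6 weeks range of -28.1 to 9.38. Replicates 1, 3 and 5 of CAC 4 weeks (22.3, 17.8 and 34.9) lay above that range, so the CAC 4 weeks group was split. Markers of skeletal muscle, such as the actin gene Acta1 and the slow myosin Myh7, were abundant in all 10 libraries, and the 10 markers of that list summed to 72276 to 96520.2 TPM in CAC 6 weeks and 75392 to 80935 TPM in CAC 4 weeks. The 13 messenger RNAs encoded in mitochondria made up 33.1 ± 5.23% of the TPM in CAC 6 weeks and 35.5 ± 2.75% in CAC 4 weeks (SD, n = 5 each). That difference of -2.41 percentage points gave p = 0.381 in an exact two-sided permutation test, whose smallest possible p is 0.00794.

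Few genes passed the test between the cachectic groups, and 7 of the 8 that did were lower at 6 weeks. Of 12075 genes tested, those with at least 1 TPM in at least 5 of the 10 libraries, 1 rose and 7 fell at an adjusted p under 0.05 (limma on log2(TPM + 1), Benjamini-Hochberg over all tested genes). These are 0.00828% and 0.0580% of the genes tested. At an unadjusted p under 0.05 the counts were 509 higher (4.22%) and 488 lower (4.04%), and these shares are the background for each gene list. After rescaling of the libraries by median of ratios, which moved the median of all genes to 0.00, they were 694 higher and 773 lower. In 31 of the 35 lists described (the exceptions were fatty acid genes, collagens, tenocyte and erythroid markers) the count of members moved by over 1.5 times without some library. Lower collagens and tenocyte markers were fewer by more than that in the fits of further groups, as given beside them. All 5 libraries of CAC 6 weeks lay above all 5 of CAC 4 weeks for 36 genes (0.298%) and below them for 116 genes (0.961%). Fold changes are log2 values of CAC 6 weeks over CAC 4 weeks. They are on the log2(TPM + 1) scale, which understates the change of low genes. Each p-value sets the difference between groups against the spread between these libraries, which limma moderates with a trend over all tested genes.

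The lowest adjusted p was that of Retnla, which encodes a secreted resistin-like protein made by alternatively activated macrophages and connective tissue cells. Retnla stood at 13.1, 14.1, 16.6, 19.5 and 15.2 TPM in CAC 6 weeks, against 43.0, 38.5, 33.8, 33.6 and 34.0 TPM in CAC 4 weeks. Every library of CAC 6 weeks lay below every library of CAC 4 weeks, and the mock groups, at 30.2 to 58.5 TPM in Con 6 weeks and 24.4 to 82.6 TPM in Con 4 weeks, lay above the CAC 6 weeks range as well. Retnla was lower by 1.18 log2 units (SE 0.12, adjusted p = 0.00311, lower in 5 of 5 libraries), a 2.26-fold difference of TPM + 1. Its change in mock muscle was 0.20 (SE 0.29, adjusted p = 0.839). The call of Retnla was lost in 2 of 18 alternative settings, the fits of all 12 groups (adjusted p = 0.380) and of weeks 2, 4 and 6 (adjusted p = 0.142).

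Fbp2, the muscle form of fructose-1,6-bisphosphatase, an enzyme that works against glycolysis and in glycogen synthesis from lactate, fell as well. Fbp2 stood at 12.8, 20.8, 15.9, 9.89 and 18.1 TPM in CAC 6 weeks and 29.5, 36.9, 37.3, 53.7 and 37.6 TPM in CAC 4 weeks. The cachectic groups did not overlap, and the mock libraries lay between and across them, at 20.5 to 29.0 TPM in Con 6 weeks and 14.2 to 30.6 TPM in Con 4 weeks. The log2 fold change of Fbp2 was -1.29 (SE 0.19, adjusted p = 0.0433), lower in 5 of 5 libraries. Its difference between the cachectic and mock changes, -1.45 (SE 0.27, adjusted p = 0.180), did not pass.

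Col22a1 encodes a collagen of the junction between muscle and tendon, and its level was 5.83, 4.94, 7.00, 5.65 and 7.38 TPM in CAC 6 weeks against 13.8, 9.64, 11.7, 10.8 and 12.99 TPM in CAC 4 weeks. Col11a2, a chain of the fibril-forming type XI collagen, measured 3.81, 3.35, 5.38, 2.78 and 5.13 TPM in CAC 6 weeks and 8.54, 7.45, 9.26, 9.11 and 9.63 TPM in CAC 4 weeks. Ecm2, a secreted leucine-rich matrix protein, was at 9.90, 9.70, 11.7, 10.1 and 10.5 TPM in CAC 6 weeks and 16.5, 15.5, 16.8, 17.1 and 15.1 TPM in CAC 4 weeks. In each of these genes the groups were fully separated. Genes past the threshold were chosen on the same values, so separation in any of them is no further support for its call. Cercam, named for a cell adhesion protein of brain endothelium, was separated too, at 2.59, 2.11, 3.25, 2.36 and 3.03 TPM in CAC 6 weeks and 6.80, 5.14, 4.31, 7.29 and 6.38 TPM in CAC 4 weeks. The log2 fold changes were -0.84 (SE 0.12) for Col22a1, -0.97 (SE 0.15) for Col11a2, -0.59 (SE 0.08) for Ecm2 and -0.92 (SE 0.14) for Cercam, each with an adjusted p of 0.0433. In mock muscle Col22a1 was lower as well, with -0.54 (SE 0.14, adjusted p = 0.568), and Ecm2 as well, with -0.23 (SE 0.07, adjusted p = 0.568).

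Myh8, the perinatal myosin heavy chain of developing and regenerating fibres, was the gene that rose. Myh8 stood at 24.5, 13.8, 29.4, 24.4 and 26.5 TPM in CAC 6 weeks and 10.3, 10.6, 6.61, 6.19 and 10.4 TPM in CAC 4 weeks. The groups did not overlap, although replicate 2 of CAC 6 weeks lay far below the other 4. Its log2 fold change was 1.32 (SE 0.21, adjusted p = 0.0433). Mock libraries spread over the whole range, with 18.6, 7.29, 14.4, 27.1 and 55.8 TPM in Con 6 weeks and 19.3, 9.93, 10.1, 15.1 and 29.7 TPM in Con 4 weeks.

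The remaining call was Hamp2, a hepcidin gene, which was named after its values were seen because its level was under 5 TPM. Hamp2 was at 0.398, 0, 1.06, 0 and 0 TPM in CAC 6 weeks and 3.12, 2.33, 2.63, 2.72 and 1.25 TPM in CAC 4 weeks, so 3 of the 5 libraries of CAC 6 weeks are listed at 0. It met the filter through CAC 4 weeks, with at least 1 TPM in 1 library of CAC 6 weeks and in 5 of CAC 4 weeks, so that its call is no independent evidence of a fall. Its fitted log2 fold change of -1.44 (SE 0.22, adjusted p = 0.0433) depends on the pseudocount, and the near-identical copy Hamp makes its assignment uncertain.

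On mm10 (GENCODE M21), Retnla lies at chr16:48842551-48844461 on the plus strand, Fbp2 at chr13:62836877-62858422 on the minus strand, Col11a2 at chr17:34039437-34066685 on the plus strand and Myh8 at chr11:67277124-67308634 on the plus strand, and none of these overlaps another annotated gene. Col22a1 at chr15:71795795-72034227 (minus), Ecm2 at chr13:49504810-49532789 (plus), Cercam at chr2:29869164-29882840 (plus) and Hamp2 at chr7:30922372-30924681 (minus) each overlap a gene on the other strand (Gm16308, Cenpp, 2600006K01Rik and Gm44662 in that order). Whether the counting used the strand is not given, so reads of those pairs may not be told apart. The calls other than Retnla rest close to the threshold. Leaving out replicate 2 of CAC 4 weeks gave 31 genes past the threshold in place of 8 (5 rose, 26 fell), and leaving out any other single library lowered it to between 1 and 4.

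**Figure D1:**
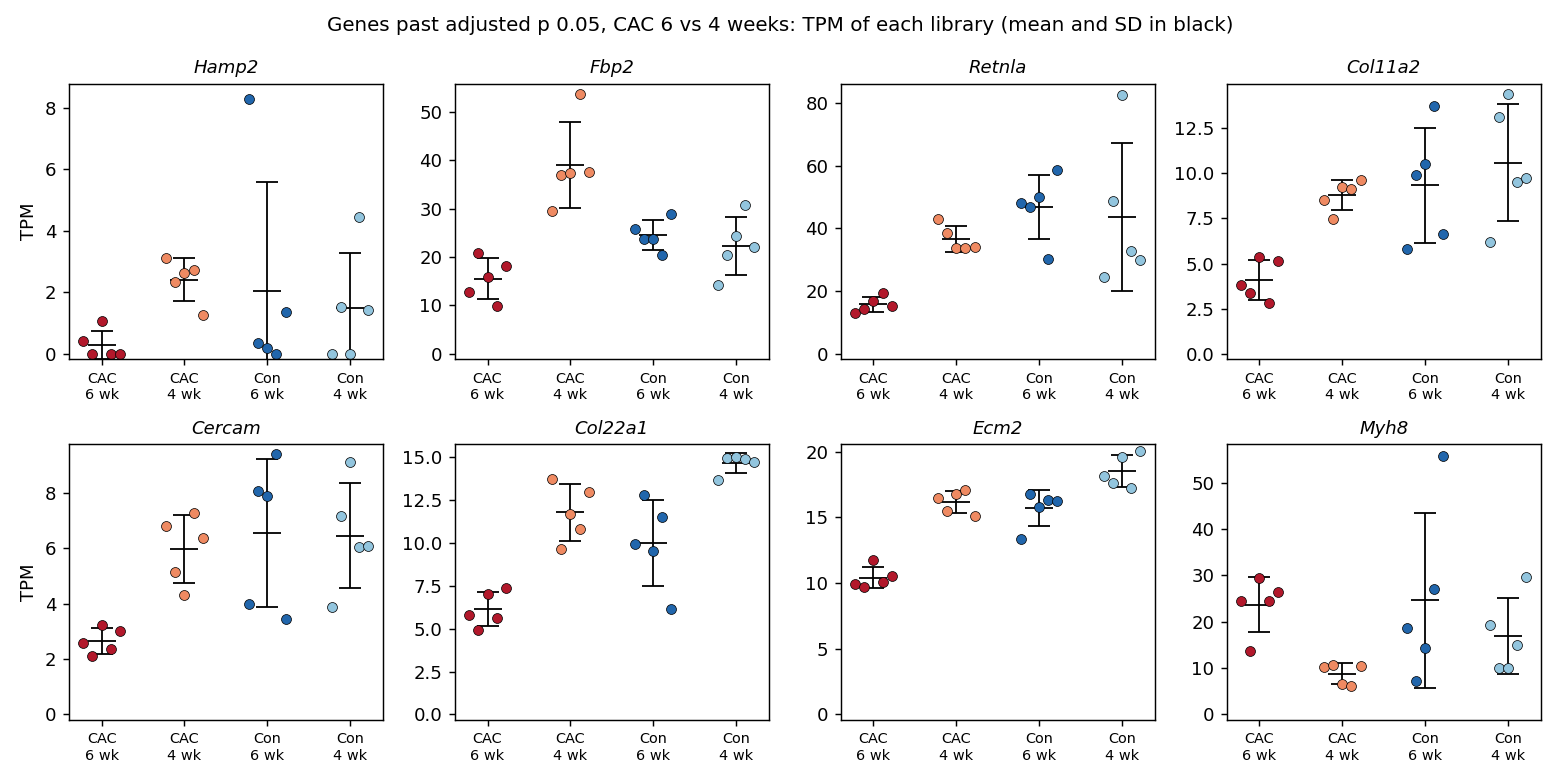
Level in TPM (y axis, linear) of the 8 genes past the threshold in each library of CAC 6 weeks, CAC 4 weeks, Con 6 weeks and Con 4 weeks (x axis, 5 libraries each), with the mean and SD in black. The CAC 6 weeks and CAC 4 weeks points do not overlap in any panel, and the genes were chosen by the test on these values. Retnla points of CAC 6 weeks, at 13.1 to 19.5 TPM, lie below those of all other groups.

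Genes of fatty acid uptake and oxidation were mostly lower at 6 weeks, although none passed the adjusted threshold. Of 38 tested members of that list, 18 were lower and 0 higher at an unadjusted p under 0.05, against 4.04% and 4.22% of all tested genes. The median log2 fold change of the list was -0.25, against 0.05 for all tested genes. In 5 members every library of CAC 6 weeks lay below every library of CAC 4 weeks, against 0.961% of all tested genes. Over the same interval in mock muscle 0 members were lower and 2 higher, with a list median of 0.04, where the background was 7.24% lower and 0.764% higher. The difference between the cachectic and mock changes was lower in 16 of 39 members and higher in 0, against 1.35% and 7.43% of 12340 genes. No gene passed the adjusted threshold in that difference, whose median over all genes was 0.10, and 1084 genes had an unadjusted p under 0.05 (917 higher and 167 lower, or 510 and 445 after rescaling of the libraries by median of ratios). With that rescaling the fatty acid members were lower in 20 of 38 cases in CAC and in 20 of 39 for the difference, and higher in 6 of 38 in Con, where 313 of all tested genes were higher and 281 lower. The count of lower members lay between 13 and 21 when each library was left out in turn.

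Hadha and Hadhb encode the subunits of the mitochondrial trifunctional protein, which carries out the last steps of each round of long-chain fatty acid oxidation. Hadhb was at 167, 260.2, 213, 169 and 221 TPM in CAC 6 weeks and 303, 254, 341, 315 and 376 TPM in CAC 4 weeks. Hadha was at 175, 242, 200.1, 164 and 208 TPM in CAC 6 weeks and 264, 233, 279, 286 and 314 TPM in CAC 4 weeks. In both genes replicate 2 of CAC 4 weeks was the lowest of its group and replicate 2 of CAC 6 weeks the highest of its group, and these libraries alone made the groups overlap. Their log2 fold changes were -0.63 (SE 0.14, adjusted p = 0.215) for Hadhb and -0.48 (SE 0.12, adjusted p = 0.247) for Hadha. The mock changes were 0.05 (SE 0.07) and 0.06 (SE 0.07) in the same order.

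These genes are shown by sequence because they stand head to head and share 1 upstream stretch. Hadha (chr5:30118304-30155162, minus strand) and Hadhb (chr5:30155248-30184593, plus strand) start 86 bases apart on mm10. The 85 bases between their GENCODE M21 starts (chr5:30155163-30155247, GRCm38.p6, plus strand, from the RefSeq promoter table) are given with capitals marking GGGCGG, the letters of a GC box.
Hadhb upstream: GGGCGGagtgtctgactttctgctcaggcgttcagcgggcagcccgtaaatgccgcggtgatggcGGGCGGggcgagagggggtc
GGGCGG was searched on both strands and occurs 2 times in this stretch. Of 32851 promoters, 22.5% hold it in the window of the same length and place, so its presence here is a description and no more.

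The enzymes that act before and beside the trifunctional protein were lower as well. Acot2, a mitochondrial thioesterase that releases fatty acids from coenzyme A, was at 13.7, 22.1, 19.2, 16.8 and 21.3 TPM in CAC 6 weeks and 25.5, 35.2, 32.8, 31.2 and 32.8 TPM in CAC 4 weeks. Eci1, an isomerase needed for unsaturated fatty acids, was at 237, 302, 279, 271 and 292 TPM in CAC 6 weeks and 332, 352, 436, 377 and 465 TPM in CAC 4 weeks. The groups were separated in both, and the log2 fold changes were -0.74 (SE 0.13, adjusted p = 0.0976) for Acot2 and -0.50 (SE 0.11, adjusted p = 0.215) for Eci1. Acot1, a near-identical neighbour of Acot2, could share reads with it, and its log2 fold change was -0.95 (SE 0.38, adjusted p = 0.592).

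Fabp3, the heart and slow muscle protein that carries fatty acids through the cytosol, was among the most abundant members. Fabp3 was at 2441, 3285, 3438, 2109 and 3144 TPM in CAC 6 weeks and 4271, 3624, 5055, 4435 and 6298 TPM in CAC 4 weeks, with no overlap, and its log2 fold change was -0.72 (SE 0.17, adjusted p = 0.247). Mock muscle held 5889.6 ± 489 TPM (SD, n = 5) in Con 6 weeks and 5521 ± 264 TPM (SD, n = 5) in Con 4 weeks. Decr1, a reductase for polyunsaturated fatty acids, lay at -0.46 (SE 0.13, adjusted p = 0.375) on the log2 scale, with 66.5 to 104 TPM in CAC 6 weeks and 94.3 to 136 TPM in CAC 4 weeks. The carnitine shuttle members were lower by less, with log2 fold changes of -0.27 for the carrier Slc25a20, -0.21 for the muscle palmitoyltransferase Cpt1b and -0.29 for Cpt2. Genes that bring fatty acids into the cell lay near 0, with the transporter Cd36 at 0.10 (SE 0.14) and the lipase Lpl at 0.08 (SE 0.11). Ppara, a receptor that drives these enzymes in many tissues, lay the other way, at 22.4, 15.6, 20.4, 17.1 and 20.1 TPM in CAC 6 weeks and 9.85, 15.0, 14.9, 9.09 and 11.1 TPM in CAC 4 weeks. Its groups were separated and its log2 fold change was 0.65 (SE 0.15, adjusted p = 0.215).

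**Figure D2:**
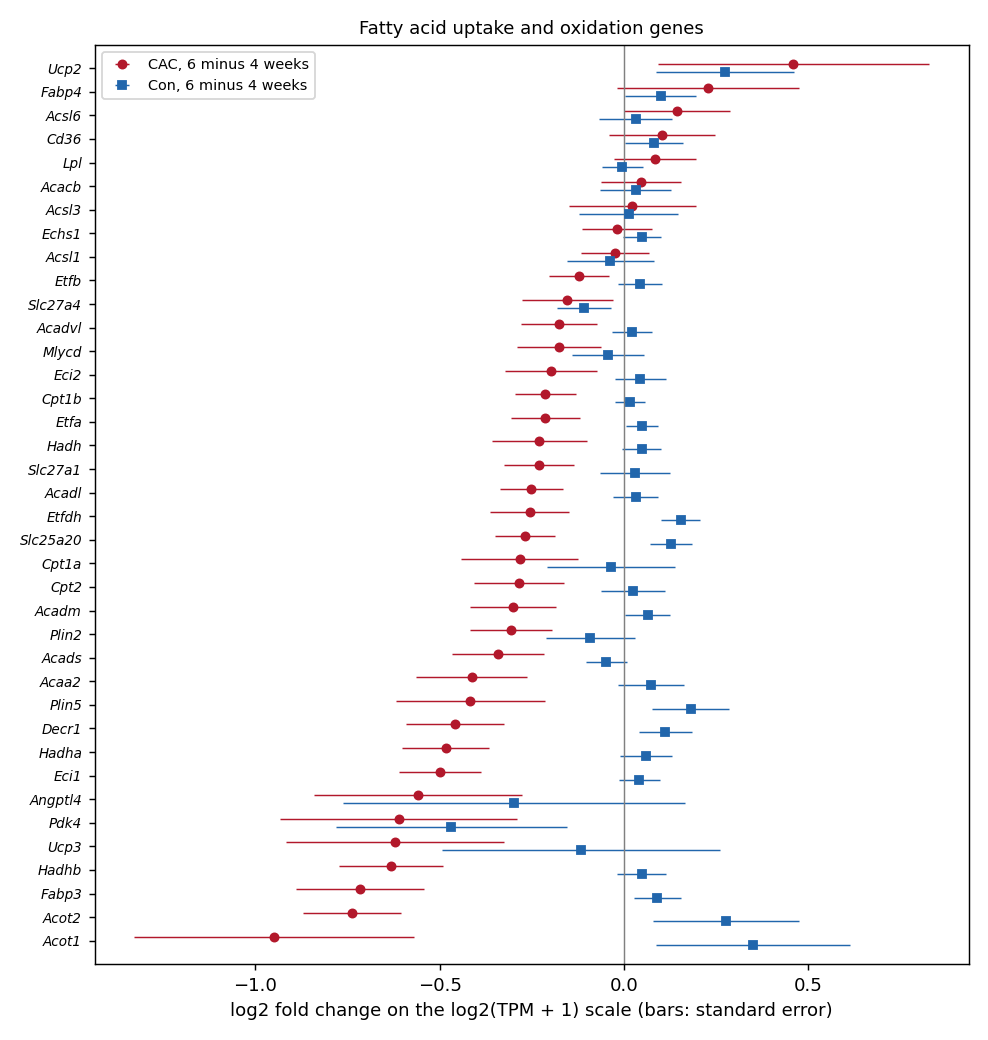
Log2 fold change of 6 over 4 weeks (x axis, log2(TPM + 1) scale, bars are standard errors) of the 38 tested genes of fatty acid uptake and oxidation (y axis), in CAC (red circles) and Con (blue squares). In CAC 31 of 38 genes lie below 0, and the list median is -0.25 in CAC and 0.04 in Con.

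Most respiratory chain genes lay below 0, and 0 passed the adjusted threshold. Of 37 complex I genes 2 were lower and 0 higher at an unadjusted p under 0.05 (median log2 fold change -0.08). Of 41 genes of complexes II to V 4 were lower and 0 higher (median -0.09). The background was 4.04% lower and 4.22% higher. Before rescaling, the lower share was near it for complex I and above it for complexes II to V. Without single libraries, 1 to 6 complex I genes and 1 to 7 genes of complexes II to V had an unadjusted p under 0.05. Fold changes were below 0 in 31 of the 37, 34 of the 41 and 12 of the 13 mitochondrially encoded transcripts. After rescaling 0 complex I genes were higher and 2 lower in CAC, against 7 higher and 0 lower in Con. For complexes II to V these were 0 and 2 in CAC and 9 and 0 in Con. Of all tested genes 694 were then higher and 773 lower in CAC, and 313 and 281 in Con. Neither lower share in CAC was above that rescaled background. The rescaled median differences between the changes were -0.21 for complex I, -0.24 for complexes II to V, -0.28 for the mitochondrial transcripts and -0.36 for the fatty acid genes. Ndufa3, a complex I subunit, had -0.30 (SE 0.09, adjusted p = 0.421), and Cox7c, a subunit of cytochrome oxidase, had -0.35 (SE 0.12, adjusted p = 0.516). Of the 13 mitochondrially encoded transcripts 1 was lower, mt-Nd3 at -0.35 (SE 0.15, adjusted p = 0.592). Of 20 genes of PGC-1 and its partner receptors, Ppara was the 1 with an unadjusted p under 0.05. Ppargc1a itself, the coactivator of mitochondrial genes, was at 21.1, 10.3, 17.0, 7.27 and 12.6 TPM in CAC 6 weeks and 9.14, 10.4, 40.8, 8.41 and 9.93 TPM in CAC 4 weeks, so that its log2 fold change was 0.00 (SE 0.39, adjusted p = 0.997).

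Glucose and glycogen genes were mixed, with 8 of 32 higher and 3 lower at an unadjusted p under 0.05 and a median of 0.13. After rescaling of the libraries by median of ratios, 2 were higher and 3 lower, and leaving out single libraries gave 4 to 9 higher and 2 to 4 lower. Gbe1, the glycogen branching enzyme, was at 96.2, 109.8, 75.2, 72.5 and 71.1 TPM in CAC 6 weeks and 70.7, 65.1, 65.8, 68.6 and 48.8 TPM in CAC 4 weeks, with the groups separated and the log2 fold change at 0.40 (SE 0.14, adjusted p = 0.522). Phka1, a regulatory subunit of phosphorylase kinase in muscle, was at 0.30 (SE 0.10, adjusted p = 0.506), while Phkg1, its catalytic subunit, was at -0.79 (SE 0.21, adjusted p = 0.338). The glycolytic isomerase Gpi1 was at 0.31 (SE 0.11, adjusted p = 0.527) and glycogen synthase Gys1 at 0.25 (SE 0.10, adjusted p = 0.571). In mock muscle 1 of the 32 genes was higher and 1 lower, and after rescaling 5 were higher and 0 lower.

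Collagen genes were mostly lower at 6 weeks than at 4 weeks in cachectic and in mock muscle. Of 19 collagens 14 were lower and 0 higher at an unadjusted p under 0.05, 1 of them (Col22a1) past the adjusted threshold. Fully separated, with CAC 6 weeks below, were 7, against 0.961% of all tested genes. The list median was -0.44. Lower collagens numbered 6 in the fit of all 12 groups and 9 in that of weeks 2, 4 and 6. In mock muscle 10 of 19 were lower and 0 higher, with a median of -0.36. The difference between the changes was lower in 1 and higher in 2 of 19, with a median of -0.22. After rescaling of the libraries by median of ratios, 15 were lower in CAC and 7 in Con. The rescaled difference was lower in 1 and higher in 0, with a median of -0.32, beside -0.36 for the fatty acid genes. Most single collagens are thus not shown to differ between the cachectic and mock intervals. Whether the list as a whole differs was not tested.

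Col1a1 and Col1a2 encode the chains of type I collagen, the main fibre of tendon and of the sheaths around muscle. Col1a1 was at 12.2, 22.6, 38.7, 18.3 and 37.7 TPM in CAC 6 weeks and 72.5, 29.2, 67.5, 82.5 and 91.2 TPM in CAC 4 weeks. Replicate 2 of CAC 4 weeks lay among the CAC 6 weeks libraries and the other 4 above all of them. Col1a2 was at 18.4, 30.1, 41.3, 23.3 and 41.8 TPM in CAC 6 weeks and 70.3, 43.8, 60.8, 79.6 and 74.4 TPM in CAC 4 weeks, separated by a narrow gap. Log2 fold changes were -1.40 (SE 0.34, adjusted p = 0.249) for Col1a1 and -1.10 (SE 0.23, adjusted p = 0.194) for Col1a2, against -0.43 (SE 0.31) and -0.32 (SE 0.31) in mock muscle. The type VI chains Col6a1 (-0.75) and Col6a2 (-0.75), which form the pericellular network around fibres, were lower by similar amounts, with adjusted p of 0.194 and 0.215 in that order. The basement membrane chains Col4a1 (0.04, SE 0.17) and Col4a2 (0.04, SE 0.15) were not lower in CAC, while in mock muscle they were at -0.48 and -0.36.

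Markers of tenocytes, the cells of tendon, were lower beside the collagens. Of 12 tenocyte markers 7 were lower and 0 higher at an unadjusted p under 0.05, with a median of -0.55. Fully separated, with CAC 6 weeks below, were 3, against 0.961% of all tested genes. In the fits of all 12 groups and of weeks 2, 4 and 6 only 2 were lower. Of the list 2, Col11a1 and Tnc, are matrix genes of other lists too. Tnc, counted as lower, met the filter through CAC 4 weeks, with at least 1 TPM in 2 libraries of CAC 6 weeks and 5 of CAC 4 weeks. Its place in the count is no independent evidence of a fall. The 12 markers summed to 316 to 613 TPM in CAC 6 weeks, 452 to 889 TPM in CAC 4 weeks, 350.0 to 809.8 TPM in Con 6 weeks and 388 to 767 TPM in Con 4 weeks, and no marker was at 0 in all 10 cachectic libraries. In bulk tissue fewer cells of a type and less RNA per cell cannot be told apart, and the part of tendon tissue in the collagen result was not tested. Mock muscle had 1 of 12 lower, with a median of -0.14, and the difference between the changes was lower in 3 of 12. After rescaling the difference was lower in 4 of 12 and higher in 0, with a median of -0.57.

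Kera, the keratocan proteoglycan of tendon and cornea, stood at 1.21, 5.34, 9.25, 2.57 and 5.74 TPM in CAC 6 weeks and 30.7, 9.80, 26.8, 25.1 and 27.5 TPM in CAC 4 weeks. Cilp2, a cartilage and tendon matrix protein, stood at 1.15, 1.56, 2.72, 1.23 and 3.77 TPM in CAC 6 weeks and 9.04, 3.82, 9.86, 11.8 and 12.2 TPM in CAC 4 weeks. In both genes the groups were separated, and replicate 2 of CAC 4 weeks lay nearest to CAC 6 weeks and far from its own group. Their log2 fold changes were -2.20 (SE 0.39, adjusted p = 0.0976) for Kera and -1.74 (SE 0.29, adjusted p = 0.0728) for Cilp2. Tnmd, the tendon membrane protein tenomodulin, had -1.05 (SE 0.25, adjusted p = 0.247). Scx, a transcription factor that defines tendon cells, was at -0.14 (SE 0.21) in CAC and -0.58 (SE 0.19) in Con. Without replicate 2 of CAC 4 weeks Kera (adjusted p = 0.0296), Cilp2 (adjusted p = 0.00564), Col1a1 (adjusted p = 0.0395) and Col1a2 (adjusted p = 0.0451) each passed the threshold. That library was the lowest of its group in each of these genes, so these passes are no support for a fall. Each gene passed in 1 of 10 omissions of a library. The highest adjusted p over the omissions was 0.293 for Kera, 0.267 for Cilp2, 0.611 for Col1a1 and 0.463 for Col1a2.

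**Figure D3:**
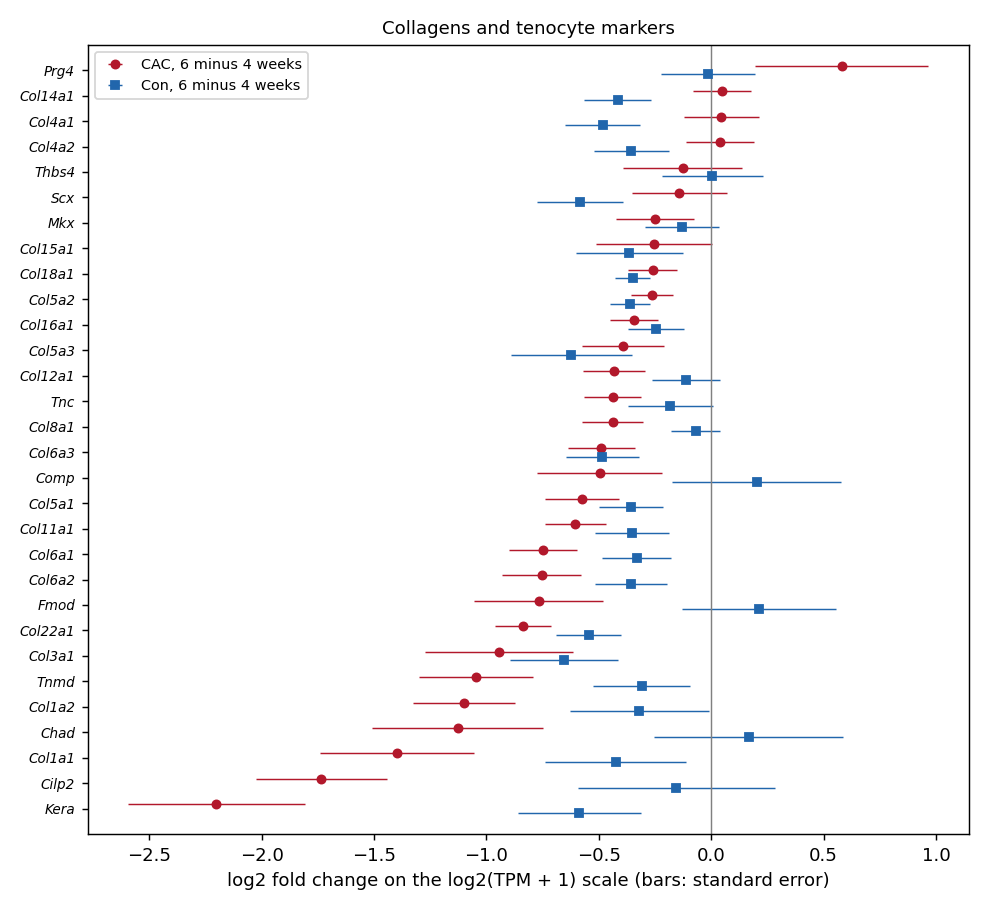
Log2 fold change of 6 over 4 weeks (x axis, log2(TPM + 1) scale, bars are standard errors) of the tested collagens and tenocyte markers (y axis), in CAC (red circles) and Con (blue squares). Kera has the lowest value in CAC, -2.20, against -0.59 in Con, while Col4a1, Col4a2 and Col14a1 lie near 0 in CAC and below it in Con.

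Matrix proteases, their inhibitors and related proteins lay on both sides of 0. Of 30 tested matrix proteases, inhibitors and related proteins 8 were lower and 0 higher at an unadjusted p under 0.05 in CAC, and 4 of 28 were lower in Con. The 8 include Tnc, which met the filter through CAC 4 weeks. Of the 30, 14 had a fold change above 0 and 16 below, with a median of -0.14 and a highest value of 0.80. Without replicate 2 or replicate 4 of CAC 4 weeks 4 were higher and 9 lower. Sparc, a collagen-binding protein of remodelling matrix, was at 108, 141, 170.0, 147 and 163 TPM in CAC 6 weeks and 269, 169.7, 237, 302 and 300.4 TPM in CAC 4 weeks, and its log2 fold change was -0.79 (SE 0.17, adjusted p = 0.205). Fibronectin (Fn1) was at -0.61 (SE 0.17, adjusted p = 0.366) and the collagen cross-linking enzyme Loxl2 at -0.52 (SE 0.13, adjusted p = 0.273). Fibroblast and fibro-adipogenic progenitor markers were lower in 3 of 13 cases (median -0.20), and summed to 1585 to 1833 TPM in CAC 6 weeks and 1379.9 to 2533 TPM in CAC 4 weeks. Of the 3, Dpt, dermatopontin, had -0.41 (SE 0.15, adjusted p = 0.562), and Dpp4 reached 1 TPM in 3 libraries of CAC 6 weeks and 5 of CAC 4 weeks.

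Acute phase genes had large fold changes between the weeks and a wide spread between the 5 libraries of CAC 4 weeks. Serpina3n, a secreted protease inhibitor induced by inflammatory cytokines, stood at 536, 269, 159.7, 287 and 156 TPM in CAC 6 weeks and 27.3, 273, 26.1, 266 and 10.4 TPM in CAC 4 weeks. Haptoglobin (Hp), the haemoglobin-binding plasma protein, stood at 399, 385, 436, 724 and 264 TPM in CAC 6 weeks and 64.4, 517, 64.8, 768 and 17.9 TPM in CAC 4 weeks. In both, replicates 2 and 4 of CAC 4 weeks lay within the CAC 6 weeks range or, for Hp in replicate 4, above it, and replicates 1, 3 and 5 lay below it. Mock muscle held 5.88 to 14.4 TPM of Serpina3n in Con 6 weeks and 4.33 to 11.5 TPM in Con 4 weeks. The log2 fold changes were 2.14 (SE 0.81, adjusted p = 0.566) for Serpina3n, where near-identical members of the Serpina3 cluster may share reads, and 1.73 (SE 0.84, adjusted p = 0.601) for Hp.

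The rest of the list showed the same split. Of 26 acute phase genes 12 passed the filter on low values and 2 of them were higher at an unadjusted p under 0.05. Of the 12, 5 reached 1 TPM in more libraries of CAC 6 weeks than of CAC 4 weeks, so the filter itself favoured members that are high at 6 weeks, and their counts and median are no support for a direction of the list. Lcn2, the iron-siderophore binding protein lipocalin 2, was at 18.9, 7.10, 5.91, 8.10 and 4.15 TPM in CAC 6 weeks and 1.25, 12.8, 1.24, 7.51 and 0.442 TPM in CAC 4 weeks. The complement gene C3 was at 134, 107, 74.4, 131 and 116 TPM in CAC 6 weeks and 57.7, 146, 32.0, 109 and 25.6 TPM in CAC 4 weeks, and its log2 fold change was 0.87 (SE 0.41, adjusted p = 0.601). Replicates 2 and 4 of CAC 4 weeks again lay within or above the CAC 6 weeks range in C3 and Lcn2, and the other 3 lay below it. The number of acute phase genes with an unadjusted p under 0.05 was 9 without replicate 2 of CAC 4 weeks and 7 without its replicate 4. Without the other libraries of CAC 4 weeks it was 1 (replicates 1 and 5) and 0 (replicate 3). Leaving out CAC 6 weeks libraries gave 0 (replicate 1), 2 (replicate 2), 3 (replicate 3), 1 (replicate 4) and 4 (replicate 5).

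Metallothioneins, small proteins that bind zinc and are induced by zinc, glucocorticoids and cytokines, followed the same libraries. Mt1 stood at 1428, 518, 398, 453 and 367 TPM in CAC 6 weeks and 76.4, 549.9, 101, 525 and 37.6 TPM in CAC 4 weeks. Mt2 stood at 1526, 491, 254, 499 and 339.7 TPM in CAC 6 weeks and 47.4, 591, 57.4, 529 and 12.98 TPM in CAC 4 weeks. Replicates 2 and 4 of CAC 4 weeks lay within the CAC 6 weeks range in both genes, and replicate 1 of CAC 6 weeks stood above every other library. The log2 fold changes were 1.83 (SE 0.69, adjusted p = 0.566) for Mt1 and 2.27 (SE 0.92, adjusted p = 0.592) for Mt2. The zinc importer Slc39a14 split in the same way, at 96.7, 45.4, 35.0, 34.0 and 29.1 TPM in CAC 6 weeks and 6.60, 49.8, 12.2, 62.6 and 4.88 TPM in CAC 4 weeks (log2 fold change 1.30, SE 0.62, adjusted p = 0.601). Of the 13 tested genes of metallothioneins and zinc transporters 3 were higher and 0 lower at an unadjusted p under 0.05 in CAC, and 0 differed in Con. The count in CAC was 7 without replicate 5 of CAC 6 weeks, and 1 without replicate 1 of either group.

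The upstream sequences of Mt1 and Mt2 are shown because these neighbours, 6.42 kb apart on chromosome 8, varied together across the libraries. Both are from the RefSeq promoter table (GRCm38.p6, plus strand) and end before the annotated starts. Capitals mark the metal response element core, searched as TGCACNC and TGCGCNC on both strands.
Mt1 upstream, chr8:94178839-94179081: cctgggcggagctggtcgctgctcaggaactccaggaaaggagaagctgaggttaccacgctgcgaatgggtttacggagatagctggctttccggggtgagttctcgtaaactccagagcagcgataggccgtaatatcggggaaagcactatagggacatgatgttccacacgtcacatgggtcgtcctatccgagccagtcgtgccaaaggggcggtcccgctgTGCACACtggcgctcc
Mt2 upstream, chr8:94172368-94172617: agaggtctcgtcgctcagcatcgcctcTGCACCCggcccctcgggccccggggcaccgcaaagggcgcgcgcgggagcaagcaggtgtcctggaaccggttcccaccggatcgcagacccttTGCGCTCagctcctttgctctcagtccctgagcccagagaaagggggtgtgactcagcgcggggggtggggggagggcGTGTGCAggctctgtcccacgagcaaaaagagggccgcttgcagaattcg
The printed Mt1 window holds 1 match to TGCACNC, and the printed Mt2 window holds 2 matches to TGCACNC and 1 to TGCGCNC. Sequence outside these windows was not searched. The matches may therefore not be all such elements of either gene, and they do not compare the genes. In windows of 250 bases, 10.4% of the 32851 promoters hold TGCACNC and 12.5% hold TGCGCNC. Near-identical sequence could let Mt1 and Mt2 share reads, and Mt2 overlaps the antisense gene Gm45774.

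**Figure D4:**
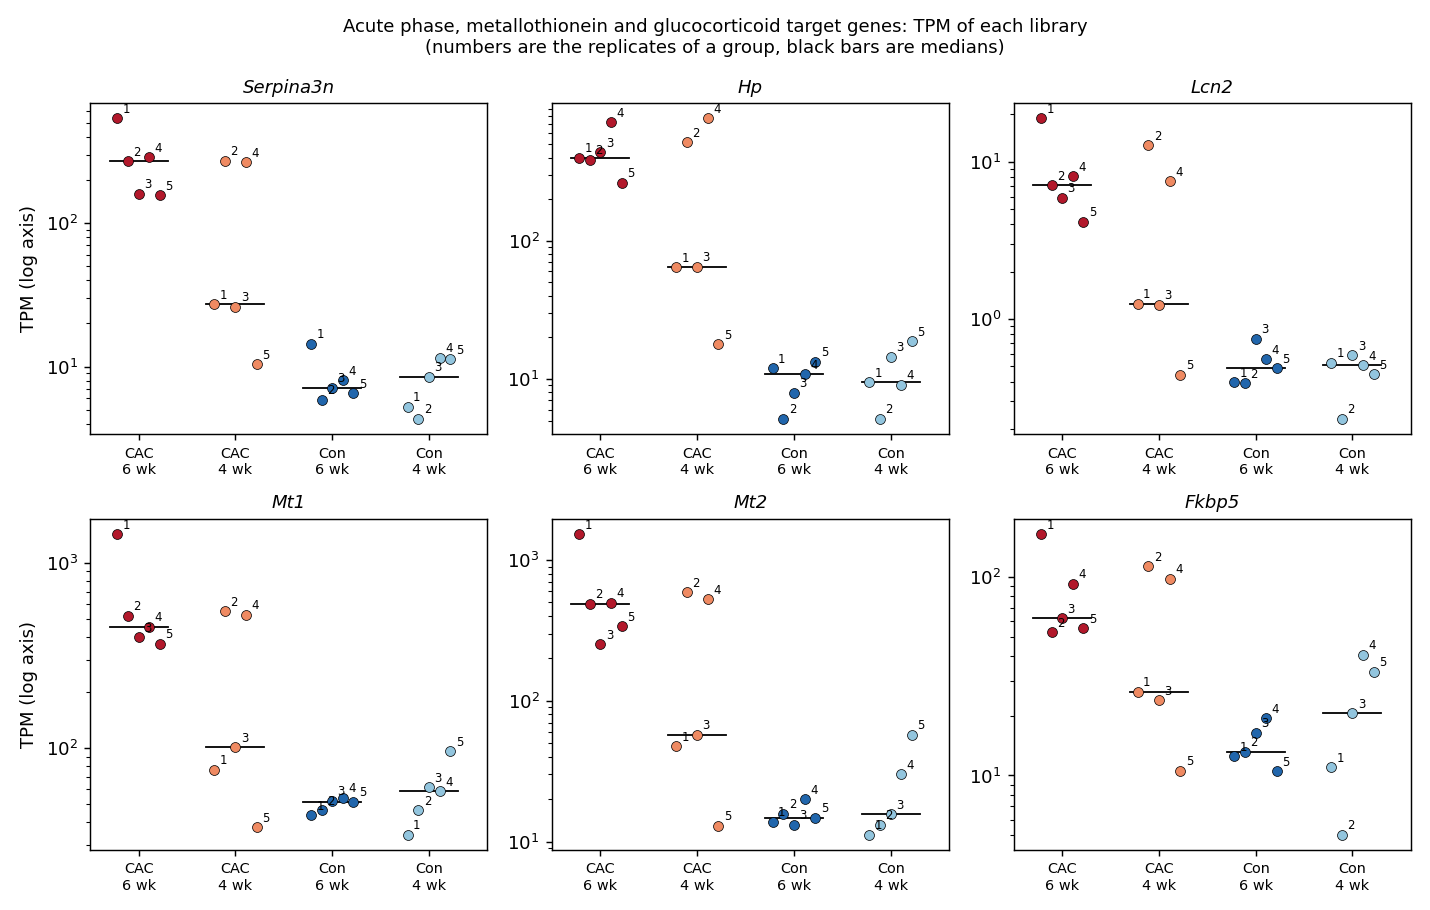
Level in TPM (y axis, log scale) of Serpina3n, Hp, Lcn2, Mt1, Mt2 and Fkbp5 in each library of CAC 6 weeks, CAC 4 weeks, Con 6 weeks and Con 4 weeks (x axis, numbered by replicate, bars are medians of 5). Replicates 2 and 4 of CAC 4 weeks lie within the CAC 6 weeks range in every panel, except replicate 4 above it for Hp, and replicates 1, 3 and 5 lie below it.

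Glucocorticoid targets and IL-6 family genes had few members at an unadjusted p under 0.05 and none past the adjusted threshold. Of 23 glucocorticoid receptor targets 1 was higher and 0 lower at an unadjusted p under 0.05, close to the background of 4.22%, and that gene was Mt2, which is counted among the metallothioneins as well. The list median was 0.39, with a fold change above 0 in 19. Fkbp5, a chaperone that glucocorticoids induce, was at 164, 52.7, 61.9, 92.2 and 55.0 TPM in CAC 6 weeks and 26.4, 113, 24.0, 97.6 and 10.6 TPM in CAC 4 weeks (log2 fold change 1.01, SE 0.57, adjusted p = 0.638). Sgk1, a kinase induced by the same hormones, was at 0.73 (SE 0.35, adjusted p = 0.601). The number of higher targets was 11 without replicate 2 of CAC 4 weeks, 7 without its replicate 4, 2 without replicate 3 of CAC 6 weeks, and 0 or 1 without any other library. Of 21 IL-6 family and STAT3 target genes 2 were higher and 0 lower, with a median of 0.16 (0.10 after rescaling) and 7 below 0, and 4 were higher without replicate 2 or replicate 4 of CAC 4 weeks. Bcl6, a transcriptional repressor downstream of STAT3, was at 0.69 (SE 0.20, adjusted p = 0.375), and Socs3, the feedback inhibitor of the IL-6 receptor, was at 41.3, 23.2, 17.8, 32.4 and 30.3 TPM in CAC 6 weeks and 16.5, 28.9, 12.5, 32.4 and 20.2 TPM in CAC 4 weeks (log2 fold change 0.40, SE 0.26, adjusted p = 0.668). Socs3 was far lower in mock muscle, at 2.27 to 4.02 TPM in Con 6 weeks and 1.27 to 3.27 TPM in Con 4 weeks, while the cachectic groups overlapped.

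The genes that mark protein breakdown in wasting muscle did not separate the weeks. Fbxo32, the ubiquitin ligase atrogin-1, was at 219, 269.8, 81.2, 191 and 139 TPM in CAC 6 weeks and 149.5, 245, 148, 225 and 157 TPM in CAC 4 weeks. Trim63, the ligase MuRF1, was at 309, 305, 149.9, 176 and 183 TPM in CAC 6 weeks and 156, 294, 184, 266 and 157 TPM in CAC 4 weeks. The groups overlapped in both, with log2 fold changes of -0.12 (SE 0.28, adjusted p = 0.905) for Fbxo32 and 0.07 (SE 0.24, adjusted p = 0.934) for Trim63, whose sign changed under some settings. Of 24 atrophy ligases and related genes 1 was higher and 0 lower at an unadjusted p under 0.05, with a median of 0.07. Of 33 proteasome subunits 1 was higher (Psmd1, 0.23 (SE 0.10, adjusted p = 0.597)) and 30 had a fold change above 0, with a median of 0.15, while mock muscle had 0 of 33 on either side. After rescaling 5 were higher in CAC (median 0.089) and 2 in Con. The proteasome count was 16 without replicate 5 of CAC 6 weeks, 7 without replicate 2 of CAC 4 weeks, 3 without replicate 3 of CAC 6 weeks and 0 without any other library.

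Among signals for growth and breakdown, 2 of 29 FoxO, IGF and insulin signalling genes were higher and 2 lower. Without replicate 2 of CAC 4 weeks these counts were 7 and 3, and without its replicates 1, 3 or 5 they were 0 and 2. Irs2, an insulin receptor substrate, was at 65.2, 151, 57.2, 50.5 and 60.1 TPM in CAC 6 weeks and 16.4, 92.2, 34.9, 57.2 and 9.92 TPM in CAC 4 weeks (log2 fold change 1.13, SE 0.51, adjusted p = 0.600). Igfbp5, an IGF-binding protein of muscle, was lower at -0.71 (SE 0.22, adjusted p = 0.411), and Igfbp6 was at -0.48 (SE 0.13, adjusted p = 0.342) with its groups separated. Of 26 genes of the myostatin, activin and BMP pathway 4 were lower and 0 higher, and 4 of 26 were lower in mock muscle as well. Fstl1, a secreted follistatin-like protein, was at -0.48 (SE 0.12, adjusted p = 0.301) in CAC and -0.24 (SE 0.11) in Con. Autophagy genes had 1 of 34 lower, the mitophagy receptor Fundc1 (log2 fold change -0.22, SE 0.09, adjusted p = 0.598). In the ATF4 and C/EBP stress list 1 of 24 was higher and 1 lower, namely asparagine synthetase Asns at 0.69 (SE 0.23, adjusted p = 0.478) and the mitochondrial folate enzyme Aldh1l2 at -0.46 (SE 0.11, adjusted p = 0.257). Of 23 p53 targets 1 was lower, the cyclin-dependent kinase inhibitor Cdkn1c (log2 fold change -0.34, SE 0.11, adjusted p = 0.462), and of 18 genes of NF-kB subunits and feedback 1 was higher, the inhibitor Nfkbib (log2 fold change 0.34, SE 0.15, adjusted p = 0.598).

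Contractile genes showed small differences around the rise of Myh8. Of 22 satellite cell and myogenic regulators 2 were higher, Myh8 and the laminin receptor Itga7 (log2 fold change 0.36, SE 0.15, adjusted p = 0.592), and 1 was lower, the Notch target Hes1 (log2 fold change -0.51, SE 0.18, adjusted p = 0.530). Myh3, the embryonic myosin, was at 45.8, 12.3, 37.4, 28.8 and 39.4 TPM in CAC 6 weeks and 16.7, 26.0, 23.2, 13.8 and 17.6 TPM in CAC 4 weeks, and its groups overlapped (log2 fold change 0.64, SE 0.30, adjusted p = 0.601). Of 35 sarcomere core genes 4 were higher and 1 lower, and 8 were higher without replicate 2 of CAC 4 weeks or replicate 5 of CAC 6 weeks. The giant spring protein titin (Ttn) was at 0.38 (SE 0.15, adjusted p = 0.586) in CAC and -0.27 (SE 0.16) in Con, and nebulin (Neb), the thin filament ruler, was at 0.37 (SE 0.15, adjusted p = 0.592) in CAC and -0.16 (SE 0.13) in Con. Of 20 slow fibre genes 2 were higher, Ankrd2, a stretch-responsive protein, at 0.59 (SE 0.25, adjusted p = 0.592) and the Z-disc protein Myoz2 at 0.37 (SE 0.16, adjusted p = 0.597). The slow myosin Myh7 (log2 fold change 0.22, SE 0.23, adjusted p = 0.774), the fast oxidative Myh2 (log2 fold change 0.34, SE 0.29, adjusted p = 0.731) and the fast Myh1 (log2 fold change 0.38, SE 0.57, adjusted p = 0.839) overlapped between the groups. Of 20 fast fibre genes 1 was higher, the enolase Eno3 (log2 fold change 0.36, SE 0.14, adjusted p = 0.579), and 1 lower, the calcium buffer Pvalb. Pvalb was at 1.78, 5.08, 5.17, 1.19 and 3.88 TPM in CAC 6 weeks and 8.45, 7.33, 6.54, 152 and 7.80 TPM in CAC 4 weeks (log2 fold change -1.90, SE 0.72, adjusted p = 0.571), and replicate 4 of CAC 4 weeks, also the highest for the fast myosin Myh4, stood far above the rest.

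Genes of the neuromuscular junction had 3 of 21 higher and 1 lower. Musk, the receptor kinase that organises the junction, was at 25.6, 18.1, 13.8, 12.4 and 12.2 TPM in CAC 6 weeks and 5.99, 12.8, 7.66, 13.1 and 5.50 TPM in CAC 4 weeks (log2 fold change 0.82, SE 0.26, adjusted p = 0.413). Chrnb1, a subunit of the acetylcholine receptor, was at 0.37 (SE 0.17, adjusted p = 0.600), and Colq, which anchors acetylcholinesterase, at -0.64 (SE 0.29, adjusted p = 0.600). Schwann cell markers were lower in 3 of 10 cases in CAC (median -0.45) and in 7 of 10 in Con (median -0.34). Of the 10, 3 reached 1 TPM in more libraries of CAC 4 weeks than of CAC 6 weeks, and 1 in more of CAC 6 weeks. S100b and Ncmap, both counted as lower, are among those 3, so the count and median in CAC are no support for a direction. They summed to 87.2 to 133 TPM in CAC 6 weeks and 113 to 343 TPM in CAC 4 weeks. Without replicate 2 of CAC 6 weeks 0 Schwann cell markers had an unadjusted p under 0.05, and without its replicates 1 or 4 the counts were 1 and 2, while 5 were lower without replicate 3 of either group.

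Markers of blood, fat and immune cells had counts on both sides. Erythroid markers were lower in 4 of 5 tested cases with a median of -1.25, and summed to 485 to 1259 TPM in CAC 6 weeks and 1020.3 to 3384 TPM in CAC 4 weeks. Hbb-bs, an adult beta globin with near-identical copies, was at 269, 577, 368, 191 and 492 TPM in CAC 6 weeks and 1431, 1529, 622, 751 and 406 TPM in CAC 4 weeks (log2 fold change -1.25, SE 0.38, adjusted p = 0.411). In mock muscle 0 of 5 erythroid markers were lower (median -0.34), although Hba-a1 was at -0.91 (SE 0.50) there, against -1.10 (SE 0.31) in CAC. The difference between the changes was lower in 1 of 5 and higher in 0, so most of this list is not shown to differ between the intervals. The 14 neutrophil markers had a summed level of 17.3 to 35.3 TPM in CAC 6 weeks and 7.07 to 22.96 TPM in CAC 4 weeks. Of these 5 passed the filter on low values, 3 of them with at least 1 TPM in more libraries of CAC 6 weeks than of CAC 4 weeks, so no count is drawn from them. Csf3r, the receptor for granulocyte colony-stimulating factor, was at 1.78, 1.21, 1.69, 1.37 and 1.67 TPM in CAC 6 weeks and 0.822, 1.35, 0.884, 0.569 and 0.517 TPM in CAC 4 weeks (log2 fold change 0.49, SE 0.13, adjusted p = 0.313), and it reached 1 TPM in 5 libraries of CAC 6 weeks and 1 of CAC 4 weeks. Of 14 tested macrophage markers 0 differed (median 0.07), with sums of 257 to 319 TPM in CAC 6 weeks and 149.7 to 427 TPM in CAC 4 weeks, beside the fall of Retnla. Class II antigen presentation and dendritic cell markers were lower in 2 of 6 tested cases, of 12 in the list, against 4.04% of all tested genes. In mock muscle 0 of 6 were lower. The count with an unadjusted p under 0.05 in CAC lay between 0 and 5 without single libraries.

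Adipocyte markers were higher in 4 of 12 cases and lower in 1, and here too the libraries of CAC 4 weeks split. Adipoq, the fat cell hormone adiponectin, was at 75.1, 90.8, 88.7, 139 and 61.8 TPM in CAC 6 weeks and 64.8, 69.3, 26.1, 88.7 and 18.0 TPM in CAC 4 weeks (log2 fold change 0.94, SE 0.39, adjusted p = 0.592). Cidec, a lipid droplet protein, was at 71.6, 67.6, 55.8, 97.2 and 53.2 TPM in CAC 6 weeks and 43.1, 51.8, 12.2, 80.1 and 8.37 TPM in CAC 4 weeks (log2 fold change 1.20, SE 0.51, adjusted p = 0.592). In both genes replicates 3 and 5 of CAC 4 weeks were the low ones. Cidea, a related droplet protein, lay the other way and was separated (log2 fold change -0.46, SE 0.13, adjusted p = 0.366). The 13 markers summed to 4948 to 10825 TPM in CAC 6 weeks and 5904 to 9138 TPM in CAC 4 weeks. Without replicate 3 or replicate 5 of CAC 4 weeks, or without replicate 4 of CAC 6 weeks, 0 of the 12 were higher, and without replicate 2 of CAC 6 weeks 2 were.

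The same interval in mock muscle gave no gene past the adjusted threshold by limma. Of 11913 genes tested there 954 had an unadjusted p under 0.05, 863 of them lower (7.24%) and 91 higher (0.764%), and the smallest adjusted p was 0.0810. After rescaling by median of ratios these were 281 lower and 313 higher, so the lean towards lower values in mock muscle depends on the scaling. Interferon response genes were higher in 8 of 24 cases in Con (median 0.24), against 0 of 24 in either direction in CAC (median 0.06), and the difference was lower in 2 of 27. Of the 18 clock genes in CAC 1 was higher and 2 were lower. Dbp, a rhythmic output gene of the clock, was at 51.8, 61.5, 8.29, 101 and 63.1 TPM in CAC 6 weeks and 136, 67.2, 151, 67.3 and 170.3 TPM in CAC 4 weeks (log2 fold change -1.27, SE 0.54, adjusted p = 0.597), and the labels give no hour of collection. Ribosomal protein genes had 2 of 77 higher and 0 lower in CAC (median 0.15), with 2 of 77 higher in Con. When each library was left out in turn, the count of these genes with an unadjusted p under 0.05 in CAC lay between 0 and 16. The 16, all higher, came without replicate 2 of CAC 4 weeks.

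**Figure D5:**
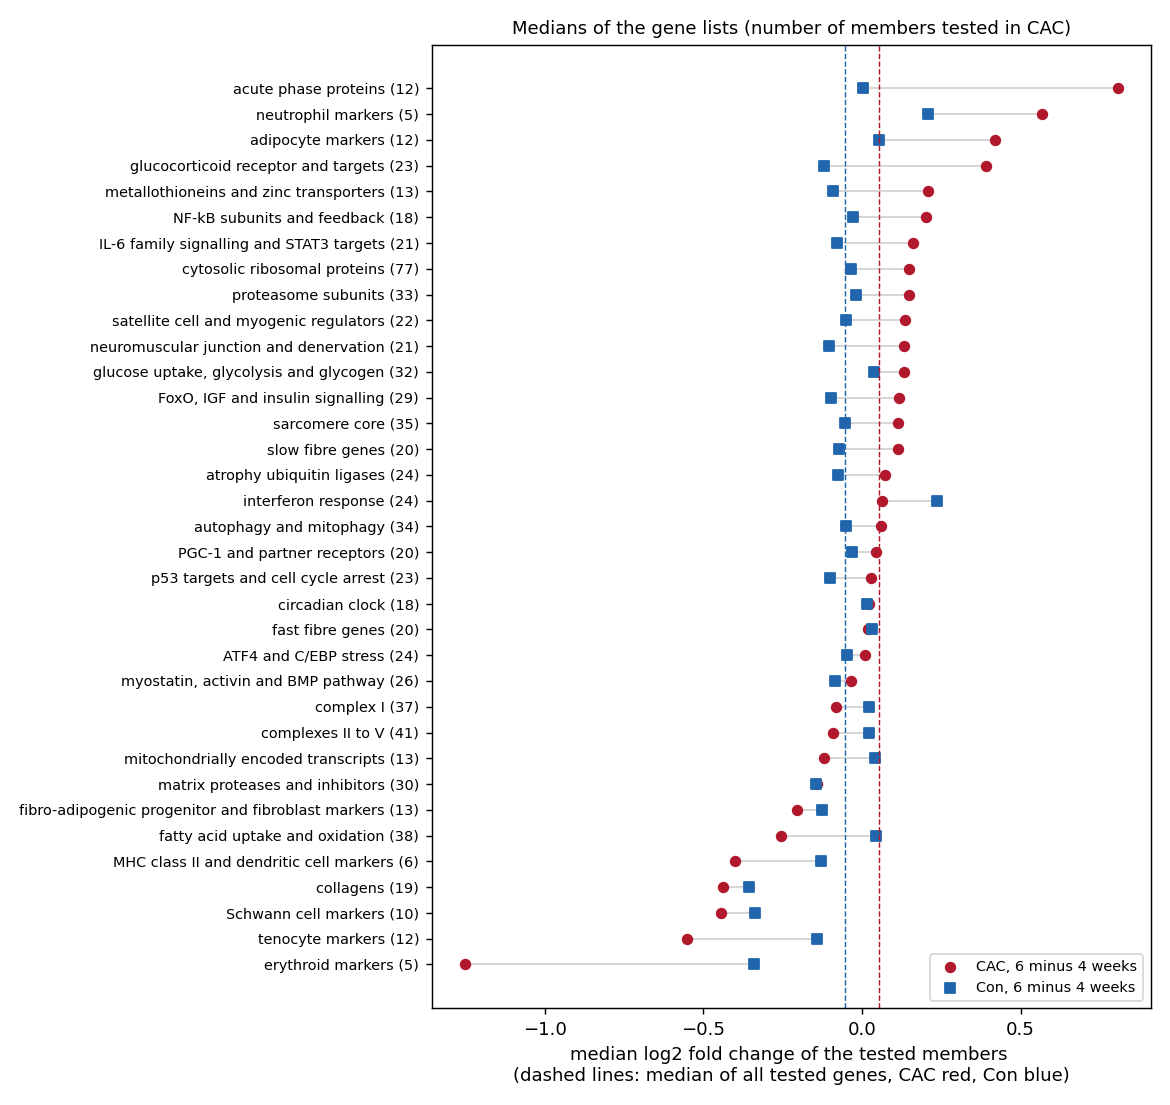
Median log2 fold change of 6 over 4 weeks (x axis) of the tested members of each described gene list (y axis, number of members tested in CAC in brackets), in CAC (red circles) and Con (blue squares), with dashed lines at the median of all tested genes. The acute phase and neutrophil medians cover only members that passed the filter on low values, which favoured those high at 6 weeks. Fatty acid genes stand at -0.25 in CAC and 0.04 in Con, and collagens are lower in both (-0.44 in CAC, -0.36 in Con).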

How the data were processed

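RNA of soleus muscle was measured in 62 libraries, of which 20 were used here, 5 each of CAC 6 weeks, CAC 4 weeks, Con 6 weeks and Con 4 weeks, with group and week as labelled. The authors deposited TPM values in 1 table. The genome build named in the submitters' processing notes was mm10. Which aligner and quantification tool were used, and whether strand was, is not given in the sources used here. Each library sums to 1000000 TPM, so depth is unknown, no interval or floor was computed, and each level is relative to the library's total.

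Genes with at least 1 TPM in at least 5 of the fitted libraries were tested on log2(TPM + 1) with limma 3.58.1 (R 4.3.3), with an intensity trend and the spread of the compared groups only. Adjusted p-values are Benjamini-Hochberg values over all tested genes of a comparison, passing under 0.05. The difference between the cachectic and mock changes was the contrast of the 4 groups in 20 libraries. The procedure was tested on simulated data in which 200 genes were changed by 1 or 2 log2 units and genes varied independently. In the CAC comparison it found 87% of the changes of 1 unit and 98% of those of 2, with 15 false calls among 12075 genes. False calls numbered 10 for mock muscle and 19 for the difference. Settings varied were the pseudocount (0.1), the filter (none), the scaling (median of ratios), the groups fitted, a replicate block, quality weights per library, and each library's presence. A fit of CAC and Con at both weeks was chosen after seeing the data. Samples were treated as unpaired.

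Named genes were up to 12 changes per direction past the threshold with a group mean of at least 5 TPM, up to 6 members of each described list with the smallest p, and a fixed panel. Some list members are named beyond this rule, for their role, and were chosen after their values were seen (Acot1, Slc25a20, Cpt1b, Cpt2, Cd36, Lpl, Col4a1, Col4a2, Col14a1 and Scx). Of 59 lists 35 are described. Values of some members are not reported here. The comparison, the members and the lists were chosen with earlier results of these data known. Positions are from GENCODE M21 (mm10) and upstream sequences from RefSeq (GRCm38.p6), which held all 3 that are printed. Figures used matplotlib 3.10.9 (Python 3.11.15).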

Additional observations from a re-analysis of the deposited data

Results flagged for a closer look

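In 19 of 316 pairs of a named gene and a cachectic group, 1 library lay far from the other 4, and chance alone gives about 1 in 20. The gap to the nearest library, as a share of the group's range of log2(TPM + 1), passed Dixon's critical value for 5 samples in each of them. At CAC 6 weeks, replicate 1 was the highest for the metallothionein Mt1 (1428 TPM, next 518 TPM) and the autophagosome protein Map1lc3a (492 TPM) and the lowest for dermatopontin Dpt (35.3 TPM). Replicate 2 of CAC 6 weeks was the lowest for the perinatal myosin Myh8 (13.8 TPM, next 24.4 TPM) and the highest for Irs2 (151 TPM). Replicate 3 of CAC 6 weeks was the lowest for the clock gene Dbp (8.29 TPM, next 51.8 TPM) and for Gadd45a (5.33 TPM), and the highest for the ligase Trim55 (53.7 TPM), and replicate 4 was the lowest for Igfbp6 (35.4 TPM).

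At CAC 4 weeks, replicate 2 was the lowest for the tendon and matrix genes Kera (9.80 TPM, next 25.1 TPM), Cilp2 (3.82 TPM), Col11a1 (2.63 TPM) and Col1a1 (29.2 TPM, next 67.5 TPM), and the highest for the receptor Lifr (14.3 TPM). Replicate 4 of CAC 4 weeks was the highest for the fast fibre genes Pvalb (152 TPM, next 8.45 TPM) and Myh4 (159 TPM, next 22.4 TPM) and for the Schwann cell gene S100b (4.36 TPM, next 2.21 TPM). Replicate 3 of CAC 4 weeks was the highest for Ppargc1a (40.8 TPM, next 10.4 TPM), and replicate 5 was the lowest for Gbe1 (48.8 TPM). The cause of these values was not tested.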

How the results depend on the processing

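Between the cachectic weeks, the 8 genes past the threshold became 1 (0 rose, 1 fell) with a pseudocount of 0.1, with no filter and with rescaling, 0 in the fit of all 12 groups, 79 (36 rose, 43 fell) in the fit of weeks 2, 4 and 6, 59 (19 and 40) with sample quality weights, 32 (8 and 24) in the added fit of CAC and Con at both weeks, and 1 to 31 without single libraries. The replicate block gave 7 (1 rose, 6 fell). Replicate numbers did not pair the samples, since deviations of same-numbered libraries correlated at -0.23, 0.17, 0.21, -0.06 and 0.25, and not every library correlated best with its own number. Mock muscle and the difference each gave 0 to 1 genes without single libraries and 0 otherwise, also with the block. The mitochondrial share differed by -2.41 points with the block as well (exact p = 0.500). Signs turned with rescaling for Eda2r (-0.026) and Ppargc1a (-0.048), and with quality weights for Gadd45a (0.044), Fbxo32 (0.18) and Ppargc1a (-0.31). Without single libraries they turned for Trim63 (-0.058 to 0.20), Eda2r (-0.10 to 0.20), Ppargc1a (-0.16 to 0.40), Myh4 (-0.65 to 0.25), Fbxo30 (-0.00087 to 0.19), Gadd45a (-0.30 to 0.19) and Fbxo32 (-0.29 to 0.14), none of which passed. The causes were not tested. Of the called genes other than Retnla, each lost its call in 13 to 15 of 18 alternatives. Over the reported genes and alternatives, 2668 values kept their direction and side of the threshold, 35 passed it newly and 99 no longer did. Lower fatty acid genes numbered 12 to 22 across these settings. The number of libraries, 5 in each group, and the unknown depth limit all comparisons.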
